A study of Homo sapiens with 2 samples.

Results

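Integrins are the receptors that hold epithelial cells to the matrix beneath them, and laminin-332 is one of their main ligands in the basement membrane of the breast. The 9 genes described here are 4 integrin alpha subunits (ITGA2, ITGA3, ITGA6 and ITGAV), 3 integrin beta subunits (ITGB1, ITGB4 and ITGB6) and the alpha and beta chains of laminin-332 (LAMA3 and LAMB3). They were listed by name and matched by symbol to Ensembl identifiers, and make up 9 of the 30796 genes in the deposited matrix. Each was measured in MDAMB468 and CAL51, human cell lines labelled as triple negative breast cancer, a cancer defined by low oestrogen receptor, progesterone receptor and ERBB2. The labels give no treatment, time or genotype for either line. Single cells were profiled by Drop-seq, in which a droplet joins a cell to a barcoded bead and each captured mRNA is counted once at its 3′ end by its unique molecular identifier (UMI).

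There was 1 library per line, so a difference between lines cannot be told apart from a difference between the preparations, and no test across samples was possible. The MDAMB468 library held 306 barcodes and 5501900 UMIs, and CAL51 held 1346 barcodes and 16223444 UMIs. Median depth was 10016.5 UMIs per barcode in MDAMB468 and 8635 in CAL51. A further 31 barcodes labelled CAL51 carried barcode sequences also found in MDAMB468 and were left out. Levels are UMIs of a gene summed over a line and scaled to the same library total in both lines (CPM), where 1 UMI is worth 0.182 CPM in MDAMB468 and 0.0616 CPM in CAL51. A summed level does not separate fewer cells with a transcript from less transcript per cell. Intervals are exact 95% intervals and cover counting error only. Epithelial keratins were present in both lines, KRT8 at 764 CPM in MDAMB468 and 919 CPM in CAL51. KRT7 was at 953 CPM in MDAMB468 and had 0 UMIs in CAL51. KRT19 (1934 against 30.6 CPM) and EPCAM (867 against 283 CPM) were also higher in MDAMB468. KRT18 went the other way, at 555 CPM in MDAMB468 and 1555 CPM in CAL51. The mesenchymal cadherin CDH2 had 0 UMIs in MDAMB468 and was at 87.0 CPM in CAL51. Mesenchymal ZEB1 was likewise at 0.182 CPM in MDAMB468 and 67.9 CPM in CAL51. The mesenchymal markers VIM (315.5 and 331.99 CPM) and FN1 (4.18 and 6.16 CPM) differed little between MDAMB468 and CAL51. The epithelial cadherin CDH1, a defining marker, was at 33.1 CPM in MDAMB468 but only 0.431 CPM in CAL51, so the breast epithelial label of CAL51 rests on its keratins and on EPCAM (283 CPM).

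An integrin is a pair of 1 alpha and 1 beta subunit, and the pairing sets the ligand. ITGB1 joins ITGA2 to form a collagen and laminin receptor, and ITGA3 or ITGA6 to form laminin receptors. ITGB4 pairs with ITGA6 alone, in the hemidesmosome that anchors keratin filaments to laminin-332. ITGAV pairs with several beta subunits, and its dimer with the epithelial subunit ITGB6 binds and activates latent TGF-beta. Laminin-332, which basal epithelial cells secrete, takes its alpha chain from LAMA3 and its beta chain from LAMB3.

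The lines held these receptors in different proportions. Of the 9 genes, 8 had at least 20 UMIs over both lines and LAMB3, with 19, did not. A difference was called at 2-fold or more on the log2(CPM + 1) scale, MDAMB468 minus CAL51. ITGA2, ITGA3, ITGB4 and ITGB6 were higher in MDAMB468, 4 of 8, where 15.8% of the 15347 genes with at least 20 UMIs were. ITGAV, ITGB1 and LAMA3 were higher in CAL51, 3 of 8, where 18.6% of all genes were. ITGA6 was on neither side. The median log2 difference of all 15347 genes was -0.13. The plot of levels by line shows the spread from ITGB6 at one end to LAMA3 at the other.

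**Figure D1:**
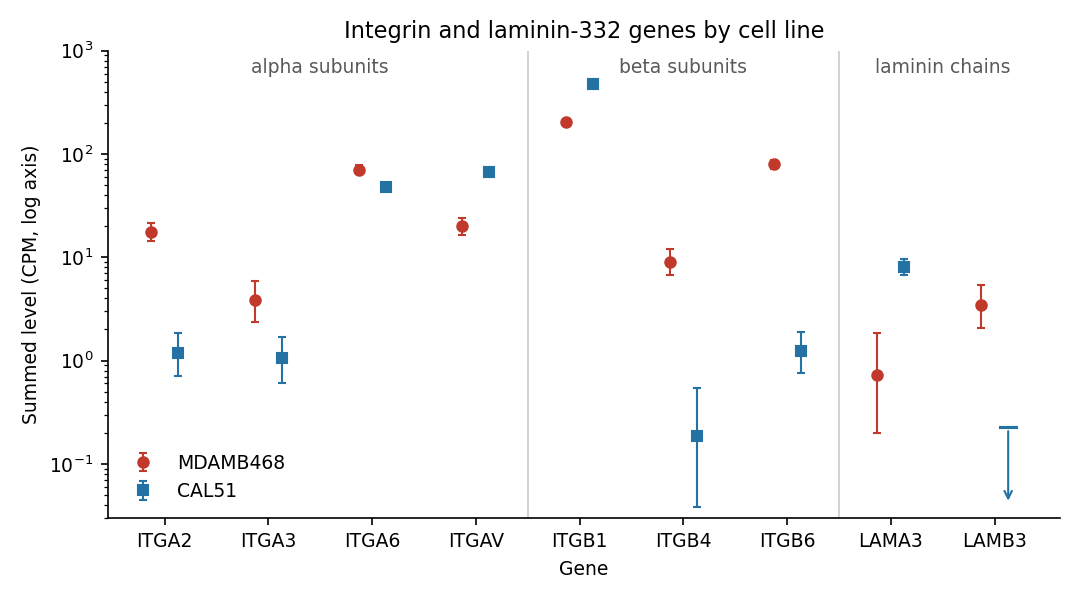
Level of each of the 9 genes in the MDAMB468 and CAL51 libraries, in CPM, with exact Poisson intervals that cover counting error only. ITGB1 was the most abundant of the 9 in both lines, and ITGB6 was at 79.6 CPM in MDAMB468 and 1.23 CPM in CAL51.

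Among the alpha subunits, ITGA2, the collagen-binding partner of ITGB1, lay furthest apart. ITGA2 (ENSG00000164171; GRCh38 chr5:52989326-53094779, plus strand) had 97 UMIs in MDAMB468, 17.6 CPM (14.3 to 21.5), and 19 UMIs in CAL51, 1.17 CPM (0.705 to 1.83). It was 15.1-fold higher in MDAMB468 (9.14 to 26.1), a log2 difference of 3.10. ITGA3 (ENSG00000005884; chr17:50055968-50090481, plus strand), a laminin receptor subunit, was scarce in both lines. Its 21 UMIs in MDAMB468 gave 3.82 CPM (2.36 to 5.83) and its 17 UMIs in CAL51 gave 1.05 CPM (0.610 to 1.68). The ratio was 3.64-fold in favour of MDAMB468 (1.83 to 7.35), with a log2 difference of 1.23, so its direction is clear of counting error but its size is not well fixed.

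ITGA6 (ENSG00000091409; chr2:172427354-172506282, plus strand), the laminin-binding subunit shared by ITGB1 and ITGB4, was the one nearest to equal. It had 387 UMIs in MDAMB468, 70.3 CPM (63.5 to 77.7), and 777 in CAL51, 47.9 CPM (44.6 to 51.4). The excess in MDAMB468 was 1.47-fold (1.30 to 1.66), a log2 difference of 0.55 that is larger than counting error but under the 2-fold threshold. ITGAV (ENSG00000138448; chr2:186590065-186680901, plus strand) went the other way, with 110 UMIs in MDAMB468 and 1089 in CAL51. ITGAV was at 67.1 CPM in CAL51 (63.2 to 71.2) against 19.99 CPM in MDAMB468 (16.4 to 24.1). CAL51 was thus 3.36-fold higher (2.76 to 4.12), with a log2 difference of -1.70. Antisense genes overlap ITGA6, and the largest of them by UMIs, AC078883.1, had 5 UMIs in MDAMB468 and 11 in CAL51.

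ITGB1 (ENSG00000150093; chr10:32900319-33005792, minus strand), the common partner of many alpha subunits, was the most abundant of the 9 genes in each line. It had 1112 UMIs in MDAMB468, 202 CPM (190.4 to 214), and 7745 in CAL51, 477 CPM (467 to 488). CAL51 was 2.36-fold higher (2.22 to 2.52), a log2 difference of -1.24. ITGB1 has 2 RefSeq promoter entries, and the stretch upstream of the first start, 47.562 kb inside the gene as annotated in GENCODE, is shown. It was chosen as the richest in CpG of the 12 RefSeq promoter entries of these genes. This entry has 32 CpG in 250 bases against a median of 11 over all 35116 entries. The second entry, 70.234 kb inside the gene, has 4 CpG and 41.6% GC. The stretch shown lies at chr10:32958233-32958480 of GRCh38.p14 on the minus strand, written 5′ to 3′, with capitals marking GGGCGG or its reverse complement CCGCCC, a GC box motif. Such a match occurs in 42.6% of all entries, so it is common.

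ITGB1: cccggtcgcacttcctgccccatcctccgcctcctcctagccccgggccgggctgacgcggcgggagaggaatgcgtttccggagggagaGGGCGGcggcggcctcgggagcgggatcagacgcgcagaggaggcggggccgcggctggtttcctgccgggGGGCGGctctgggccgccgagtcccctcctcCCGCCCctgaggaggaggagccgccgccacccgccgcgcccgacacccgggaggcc

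ITGB6 and ITGB4 were MDAMB468 genes. ITGB6 (ENSG00000115221; chr2:160099666-160200313, minus strand) had 438 UMIs in MDAMB468, 79.6 CPM (72.3 to 87.4), and 20 UMIs in CAL51, 1.23 CPM (0.753 to 1.90). It was 64.6-fold higher in MDAMB468 (41.3 to 107), with a log2 difference of 5.17, the largest of the 9. ITGB4 (ENSG00000132470; chr17:75721328-75757818, plus strand), the hemidesmosome subunit, had 50 UMIs in MDAMB468 and 3 in CAL51. Its level was 9.09 CPM (6.75 to 11.98) against 0.185 CPM (0.0381 to 0.540), a log2 difference of 3.09. The 49.1-fold ratio has a wide interval, 15.9 to 246, because the lower count is 3. The 3′ end of ITGB4 overlaps GALK1 on the opposite strand, which had 130 UMIs in MDAMB468 and 289 in CAL51, and no source used here says whether strand was used in counting.

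The sequence before the ITGB6 start is shown beside that of the first ITGB1 entry because these entries differ so much in composition. The ITGB1 entry shown has 78.4% GC, and the second ITGB1 entry, not shown, has 41.6%. The ITGB6 entry has 0 CpG and 30% GC in 250 bases, and 6.06% of all entries have 0 CpG. The stretch is chr2:160200314-160200522 on the minus strand, and the capitals mark its match to CACCTG, an E-box letter pattern, 70 bases before the start.

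ITGB6: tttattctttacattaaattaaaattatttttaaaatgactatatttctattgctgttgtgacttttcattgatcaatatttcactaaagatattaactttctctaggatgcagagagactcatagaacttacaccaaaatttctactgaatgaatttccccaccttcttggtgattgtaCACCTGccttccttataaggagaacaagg

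Either CACCTG or its reverse complement CAGGTG occurs in 17.5% of all entries, so the match by itself is common.

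LAMA3 was higher in CAL51, and LAMB3, under the minimum of 20 UMIs and so not called, was seen in MDAMB468 alone. LAMA3 (ENSG00000053747; chr18:23689443-23956222, plus strand), the alpha chain, had 4 UMIs in MDAMB468, 0.727 CPM (0.198 to 1.86), and 131 in CAL51, 8.07 CPM (6.75 to 9.58). CAL51 was 11.1-fold higher (4.24 to 41.4), with a log2 difference of -2.39. LAMB3 (ENSG00000196878; chr1:209614870-209652466, minus strand), the beta chain, had 19 UMIs in MDAMB468 and 0 in CAL51. It was at 3.45 CPM in MDAMB468 (2.08 to 5.39), at least 18.7-fold higher than in CAL51, where a floor of 3 counts over the library stands in for 0.

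In MDAMB468, LAMA3 was seen in 4 barcodes and LAMB3 in 16, too few to read whether they occur together. In CAL51, LAMA3 was seen in 104 barcodes and LAMB3 in 0. Because the transcripts are read at their 3′ ends, these counts do not tell which LAMA3 start was used. The RefSeq entry for LAMA3 starts 183.577 kb inside the gene. Its 250 bases hold 2 matches to TGANTCA, the AP-1 letter pattern, 125 and 69 bases before the start. Such matches, read on both strands, occur in 6.57% of all entries, and 2 or more in 0.402%. The sites are printed with 10 bases on each side from the plus strand, the first at chr18:23872885-23872911 and the second at chr18:23872941-23872967. They are shown with the LAMB3 stretch because both genes have an entry that holds the pattern. The entries of other laminin chains were not read. One of the 3 LAMB3 entries has 1 match, 67 bases before its start, in the stretch chr1:209651395-209651624 on the minus strand. Capitals mark TGANTCA in all 3 lines, and the second LAMA3 site overlaps a CACCTG match.

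LAMA3 first site: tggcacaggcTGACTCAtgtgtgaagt

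LAMA3 second site: cttcctcaccTGAGTCAggcaggcccg

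LAMB3: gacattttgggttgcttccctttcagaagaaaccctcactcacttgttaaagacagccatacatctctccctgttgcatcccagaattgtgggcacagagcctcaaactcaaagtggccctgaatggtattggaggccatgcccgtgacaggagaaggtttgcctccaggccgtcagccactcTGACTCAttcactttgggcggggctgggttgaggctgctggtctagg

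The pattern was found in the LAMA3 window and in 1 of the 3 LAMB3 windows. Whether it bears on the level of either gene was not tested. These windows are a description of letters and carry no measurement of factor binding. RefSeq promoter entries were found for 7 of the 9 genes, and ITGA3 and ITGB4 had none in the table used.

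The share of barcodes with a UMI was compared at equal depth. Every barcode was thinned to 2500 UMIs, and no barcode was lost. ITGB1 was detected in 43.5% of MDAMB468 barcodes (133 of 306, interval 37.8 to 49.2) and in 66.0% of CAL51 barcodes (889 of 1346, 63.4 to 68.6). ITGAV was detected in 2.94% of MDAMB468 barcodes (1.35 to 5.51) and in 15.3% of CAL51 barcodes (13.4 to 17.3). Both were therefore detected more often in CAL51, with intervals that do not overlap. LAMA3 was found in 1 MDAMB468 barcode, 0.327% (0.00827 to 1.81), and in 28 CAL51 barcodes, 2.08% (1.39 to 2.99), and these intervals overlap.

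ITGB6 was detected in 52 MDAMB468 barcodes, 16.99% (12.96 to 21.7), and in 0 of 1346 CAL51 barcodes in this draw, which allows a share of up to 0.223% at this depth. A second random draw found it in 16.7% and 0.223%. ITGB4 was detected in 12 MDAMB468 barcodes, 3.92% (2.04 to 6.75), and in 1 CAL51 barcode, 0.0743% (0.00188 to 0.413). ITGA2 was detected in 3.27% of MDAMB468 barcodes (1.58 to 5.93) and in 0.297% of CAL51 barcodes (0.0810 to 0.759). These 3 subunits were thus scarce in CAL51 by detection as well as by summed level. ITGA6 was found in 16.7% (12.7 to 21.3) and 10.3% (8.68 to 11.998), the narrowest gap of the well-detected genes. ITGA3 had 2 and 1 positive barcodes, and LAMB3 had 1 and 0, too few to compare at this depth. At full depth, ITGB6 had a UMI in 54.9% of MDAMB468 barcodes and 1.11% of CAL51 barcodes, ITGB1 in 79.1% and 94.2%, and ITGAV in 19.9% and 42.4%.

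**Figure D2:**
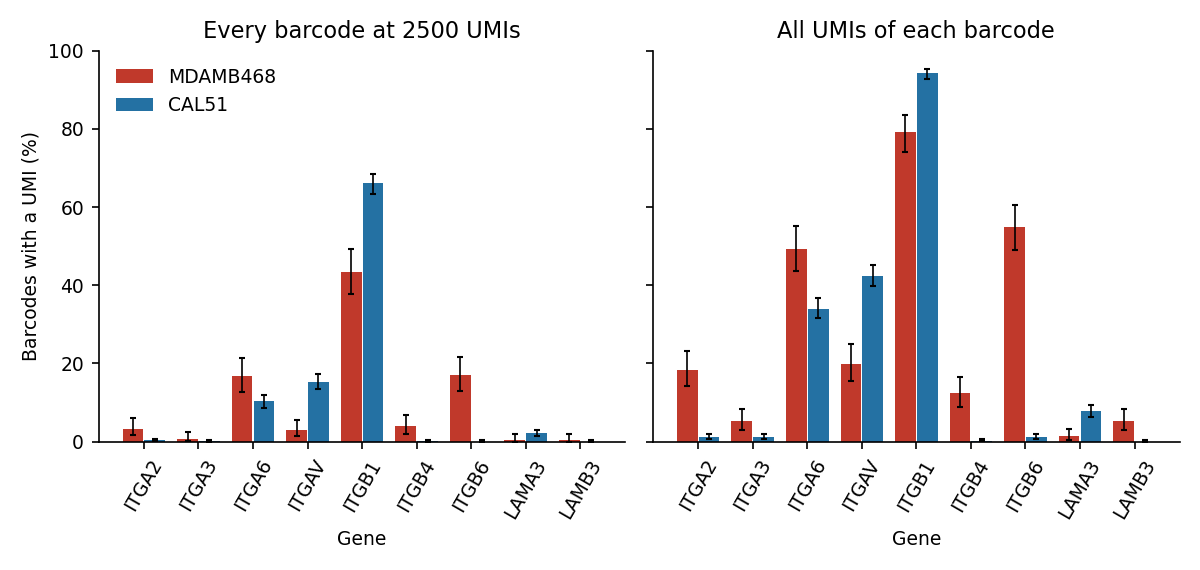
Percent of barcodes with at least 1 UMI of each gene after thinning every barcode to 2500 UMIs, for 306 MDAMB468 and 1346 CAL51 barcodes, with exact binomial intervals. ITGB1 was detected in 43.5% and 66.0% of barcodes, and ITGB6 in 16.99% and 0%.

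The MDAMB468 genes had a few UMIs in CAL51. The 20 ITGB6 UMIs in CAL51 lay in 15 barcodes with a median of 16963 UMIs, above the line median of 8635, and 1 barcode held 5 of them. The 3 ITGB4 UMIs lay in 3 barcodes with a median of 7434 UMIs, below it. The 15 ITGB6 barcodes had 0 UMIs of KRT7 and of CDH1, 35 of ZEB1 and 35 of CDH2. They also had 51 of the 496 CAL51 UMIs of KRT19, a keratin at 1934 CPM in MDAMB468 and 30.6 CPM in CAL51. In the reverse direction, the 4 MDAMB468 barcodes with LAMA3 had 200 KRT7 UMIs and 0 of ZEB1 and CDH2. Free RNA within a library was not measured here, and its part in these low counts was not tested.

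The make-up of each subunit class can be read as shares of the UMIs of that class, which count transcripts by their 3′ ends whatever their length and were worked out after the levels were seen. Over 8 beta subunit genes, with 1967 UMIs in MDAMB468 and 8625 in CAL51, ITGB1 made up 56.5% (54.3 to 58.7) of MDAMB468 UMIs and 89.8% (89.1 to 90.4) of CAL51 UMIs. ITGB6 made up 22.3% (20.4 to 24.2) in MDAMB468 and 0.232% (0.142 to 0.358) in CAL51. The beta pool of MDAMB468 was thus spread over ITGB1, ITGB6 and ITGB8, which held 14.9% in MDAMB468 and 7.83% in CAL51.

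Over 17 alpha subunit genes, ITGA6 held 35.8% of UMIs in MDAMB468 and 21.3% in CAL51. ITGAV held 10.2% (8.43 to 12.1) in MDAMB468 and 29.9% (28.4 to 31.4) in CAL51. ITGA2 held 8.96% in MDAMB468 and 0.522% in CAL51. The summed level of alpha subunits was 197 CPM in MDAMB468 and 224 CPM in CAL51, so the composition differed more than the total. ITGAE, the partner of ITGB7, held 41.3% and 43.5%. Among laminin alpha chains LAMA3 held 0.393% (0.107 to 1.004) in MDAMB468, where LAMA4 held 93.5%, and 24.4% (20.8 to 28.3) in CAL51, where LAMA5 held 57.4%. LAMB3 held 4.59% (2.79 to 7.07) of laminin beta chain UMIs in MDAMB468 and 0% in CAL51.

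**Figure D3:**
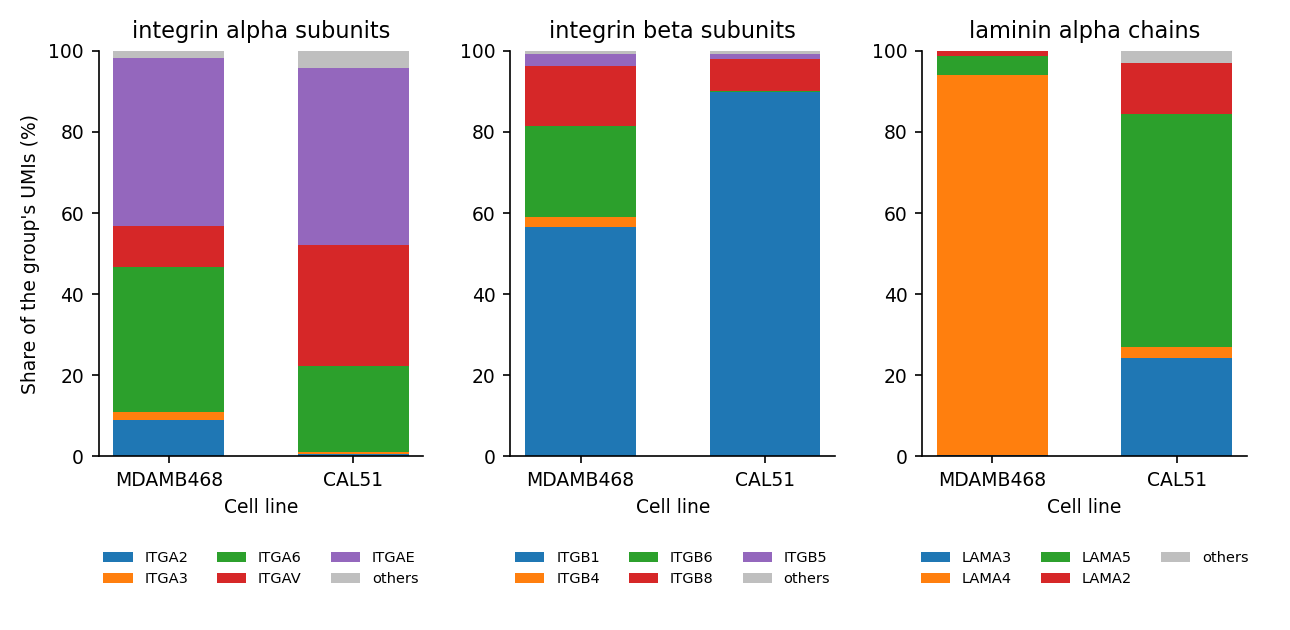
Share of UMIs, in percent, that each gene held within the integrin beta, integrin alpha and laminin alpha classes in each line. ITGB6 held 22.3% of the beta class in MDAMB468 and 0.232% in CAL51, and LAMA4 held 93.5% of the laminin alpha class in MDAMB468.

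Within barcodes, the abundant subunits that pair in the protein were found together about as often as their separate shares give. At 2500 UMIs, ITGA6 and ITGB1 were both present in 22 MDAMB468 barcodes, where the product of shares gives 22.2, and in 90 CAL51 barcodes, where it gives 91.1. ITGAV and ITGB1 were both present in 137 CAL51 barcodes, with 136 from the product. In MDAMB468, ITGA6 and ITGB4 were both present in 2 barcodes and ITGAV and ITGB6 in 3, too few to read, and a second random draw gave 4 and 2. Most barcodes showed few of the genes at this depth. In MDAMB468, 34.6% of barcodes held 0 of the 9 genes, 47.7% held 1 and 12.4% held 2, and in CAL51 these were 25.5%, 56.5% and 16.6%.

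The spread between barcodes of a line was set beside that of other genes of like level. The Fano factor, the variance of the thinned counts over their mean, is near 1 for counting noise alone. For ITGB6 in MDAMB468 it was 1.09, and the median of genes with a like mean was 1.04. For ITGB1 in CAL51 it was 1.19, against 1.11. For ITGAV in CAL51 it was 1.09, against 1.05. For ITGB1 in MDAMB468 it was 0.924 against 1.06, but 1.10 against 1.07 in a second random draw from the same barcodes, so differences of this size are not resolved.

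Clusters were then made within each line without the 9 genes, and are called by number and leading genes. In CAL51, ITGAV was at 91.5 CPM (82.1 to 102) in cluster 1, led by NTS, COL2A1 and ACTC1, and at 47.7 CPM (42.0 to 54.0) in cluster 0, led by ALPL, ITLN1 and APOE. ITGB1 was also highest in cluster 1, at 574 CPM (550 to 599), and was at 443 CPM in cluster 3, the lowest of the 4 larger clusters. In cluster 4, with 9 barcodes and led by IFIT2, ITGB1 was at 377 CPM (260 to 529). LAMA3 had the opposite order, with 10.6 CPM in cluster 0 and 5.56 CPM in cluster 1. With a coarser clustering at resolution 0.3 the ITGAV range shrank to 70.8 against 65.1 CPM and the LAMA3 range to 8.66 against 7.17 CPM, both within counting error. With 10 components ITGAV was at 92.1 CPM in the cluster led by NTS and COL2A1 and at 49.3 CPM in one led by H1-3. That gap was 1.87-fold (1.56 to 2.24). LAMA3 was at 14.8 CPM in the H1-3 cluster and at 4.84 CPM in one led by ANKRD1, 3.06-fold apart (1.63 to 6.26). In the NTS cluster LAMA3 was at 5.96 CPM, so the cluster lowest in LAMA3 was not the one highest in ITGAV. ITGA6 varied little across the larger CAL51 clusters, by 1.19-fold (0.947 to 1.48) in the main clustering and 1.20-fold (0.962 to 1.51) with 10 components. Each range is taken between the highest and lowest of the larger clusters, and clusters of 9 and 11 barcodes are left out.

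In MDAMB468 the subunits were compared across the 3 larger clusters. ITGB1 was at 209 CPM in cluster 0, led by H1-1, DTL and EXO1, at 197 in cluster 1, led by DCD and S100A7, and at 201 in cluster 2, led by CCNB1, PLK1 and CENPE. ITGB6 was at 83.8, 87.7 and 75.8 CPM in the same clusters. The gap between the highest and lowest cluster was 1.06-fold for ITGB1 (0.896 to 1.26) and 1.16-fold for ITGB6 (0.895 to 1.49), within counting error. With 10 components in place of 30 these gaps were 1.22-fold (1.03 to 1.44) and 1.35-fold (1.03 to 1.77), beyond counting error. ITGA6 was at 82.7 CPM in cluster 2 and 57.6 in cluster 1, 1.44-fold apart (1.08 to 1.93), and ITGA2 at 21.97 in cluster 2 and 12.5 in cluster 0, 1.76-fold apart (1.04 to 3.08). The ITGA6 gap was 1.44-fold (1.09 to 1.94) at resolution 0.3 but 1.25-fold (0.927 to 1.69), within counting error, with 10 components. The ITGA2 gap was 1.77-fold (1.01 to 3.10) with 10 components but 1.65-fold (0.996 to 2.82), within counting error, at resolution 0.3. Each ratio was taken between the highest and lowest of the larger clusters, and cells of 1 library are not replicates.

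**Figure D4:**
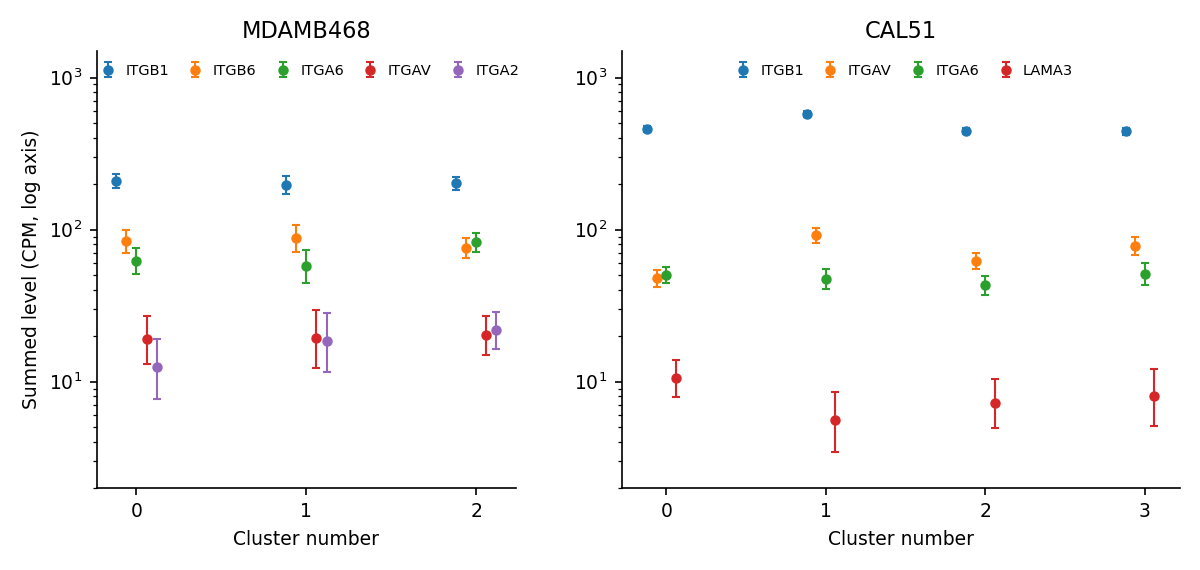
Level of the more abundant genes in the larger clusters of each line, in CPM, with exact Poisson intervals, for clusters made without the 9 genes. The cluster of 9 barcodes in each line is left out. In CAL51, ITGAV was at 91.5 CPM in cluster 1 and 47.7 CPM in cluster 0, and in MDAMB468 ITGB1 was between 197 and 209 CPM in the 3 larger clusters.

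Likeness across barcodes was computed where a gene had at least 500 UMIs in a line, which was ITGB1 in MDAMB468 and ITGA6, ITGAV and ITGB1 in CAL51. Over 1339 CAL51 barcodes, the genes most like ITGB1 by Pearson's r of log counts were MYH10 (0.209), VCAN (0.201) and GPC3 (0.179), and those most like ITGAV were NRP1 (0.173), ACTC1 (0.150) and MALAT1 (0.144). For ITGA6 in CAL51 they were CERT1 (0.137), MMP14 (0.127) and NIPSNAP2 (0.126). For ITGB1 over 242 MDAMB468 barcodes they were H1-4 (0.297), FMR1 (0.264) and H1-3 (0.258). Points share a library, and coefficients this weak in sparse counts are no finding.

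The wider adhesion genes, in 7 lists drawn up with earlier results of these data known, held 91 genes of the matrix, of which 72 had at least 20 UMIs. Of these, 9 were higher in MDAMB468 and 29 in CAL51, with a median log2 difference of -0.37 beside -0.13 for all genes. Of all 15347 genes, 15.8% were higher in MDAMB468 and 18.6% in CAL51, and the counts of each list are to be read beside those shares. Of the 8 genes at 0 UMIs in a line, PARVB and NID1 fall below 2-fold when the floor of 3 counts replaces 0, which leaves 27 higher in CAL51. Among the other alpha subunits 1 of 3 was higher in CAL51, ITGA9 with 4 and 76 UMIs, the highest log2 difference was that of ITGA2B (0.03), and the median was -0.26. Among the other beta subunits 1 of 3 was higher in CAL51, ITGB3, one of several partners of ITGAV. ITGB3 had 0 UMIs in MDAMB468 and 66 in CAL51, at least 7.46-fold higher in CAL51. ITGB5 (0.59) was the highest of that list and ITGB8 (0.35) its median, and both leaned to MDAMB468 but stayed under 2-fold.

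Of the other laminin chains, 1 of 7 was higher in MDAMB468 and 4 were higher in CAL51 (15.8% and 18.6% of all genes). Their median was -1.01. LAMA4, an alpha chain of mesenchymal and vascular laminins, had 951 UMIs in MDAMB468 and 14 in CAL51. It was 200.3-fold higher in MDAMB468 (119 to 368), with a log2 difference of 6.54. LAMC1, a chain of many laminins, was at 40.5 CPM in MDAMB468 and 164 CPM in CAL51, 4.05-fold higher in CAL51 (3.53 to 4.66). Of 6 hemidesmosome and tetraspanin genes, 3 were higher in MDAMB468 and 0 in CAL51, namely CD82, DST and CD9, and the median was 0.91. CD82, a tetraspanin that associates with integrins, was at 138 CPM in MDAMB468 and 1.23 CPM in CAL51, and CD81 (-0.24) was the lowest of the list.

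Of 30 adaptor and activation genes, 2 were higher in MDAMB468 and 10 in CAL51 (15.8% and 18.6% of all genes). Their median was -0.36. FERMT2, a kindlin that activates integrins at the beta subunit tail, was at 11.5 CPM in MDAMB468 and 209 CPM in CAL51, 18.3-fold higher in CAL51 (14.2 to 23.8). TNS4, a tensin of focal adhesions, had 20 UMIs in MDAMB468 and 0 in CAL51, at least 19.7-fold higher in MDAMB468. The kindlin of epithelia, FERMT1, was the other gene of that list that was higher in MDAMB468. Of 17 ligand genes, 2 were higher in MDAMB468 and 10 in CAL51, with a median of -1.19. TNC, a matrix ligand of ITGAV dimers, had 77 UMIs in MDAMB468 and 1 in CAL51, a ratio of 227 (39.6 to 9083). SPP1, the ligand osteopontin, had 0 UMIs in MDAMB468 and 929 in CAL51, at least 105-fold higher in CAL51. Of 6 other laminin receptor and processing genes, 1 was higher in MDAMB468, the protease MMP2 (2.23), and 3 were higher in CAL51, with the laminin alpha5 receptor BCAM (-2.38) at the low end and a median of -0.69.

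**Figure D5:**
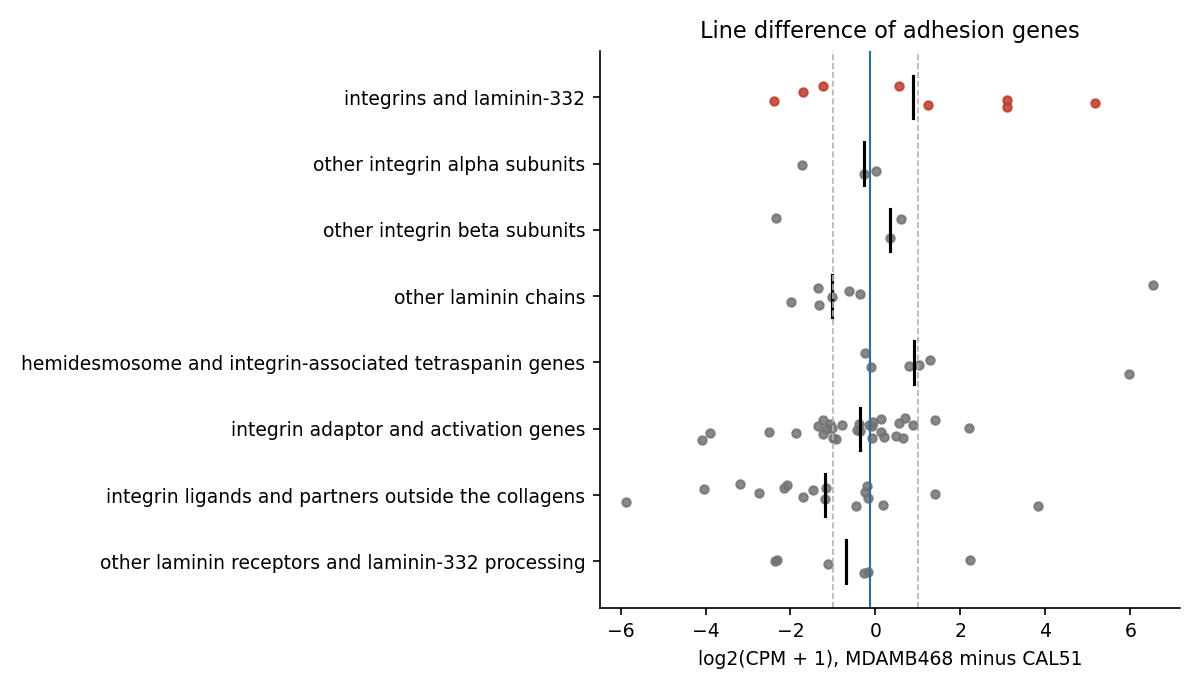
Log2 difference of CPM + 1, MDAMB468 minus CAL51, for the 9 genes and each gene of 7 other adhesion lists with at least 20 UMIs over both lines. Of the 72 genes in the 7 lists, 29 were at least 2-fold higher in CAL51 and 9 in MDAMB468, where 18.6% and 15.8% of all genes were.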

How the data were processed

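Values deposited by the authors are raw UMI counts, with genes as rows and cell barcodes as columns. STARsolo is named, per the submitters' processing notes. Not given in the sources used here: genome build, annotation, barcode selection, use of strand. Barcode prefixes assigned cells to lines, and no column of values was left unused (0). Counts were summed per line and scaled to CPM, and log2 differences used a pseudocount of 1 CPM. Genes needed 20 UMIs over both lines. No p-value was computed with 1 library per line. Doublets were not called. Satellite barcodes (1 base away from one in their own library that had 5 or more times as many UMIs) numbered 64 in MDAMB468 and 7 in CAL51. They were kept, except in clusters and likeness. Clusters used 2000 variable genes, 30 components, 15 neighbours and Leiden at resolution 0.5 (scanpy 1.11.5). Positions came from GENCODE 29 on GRCh38, and promoters from RefSeq (GRCh38.p14), read over 250 bases before the start. Named genes are the 9, the highest and lowest difference of each list, and the 3 genes most like each well-counted gene. DST, CD9, FERMT1, PARVB, NID1, the overlapping genes and the other genes of the subunit classes were named after their values were seen. The 9 genes and all lists were chosen with earlier results of these data known. Scripts were tested on simulated data. A further gene that the naming rule included is not reported here.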

Additional observations from a re-analysis of the deposited data

Results flagged for a closer look

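The 31 barcodes labelled CAL51 whose sequences also occur in MDAMB468 were left out of CAL51, except in the setting that adds them back. In these barcodes ITGB6 had 5 UMIs, 37.0 CPM (12.0045 to 86.3). The interval lies above the 1.23 CPM of the other CAL51 barcodes and includes the 79.6 CPM of MDAMB468. The 31 barcodes held 135240 UMIs in all.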

How the results depend on the processing

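No paired analysis was possible because each line has 1 library. With a pseudocount of 10 CPM, 2 of the 8 genes with enough UMIs were called higher in MDAMB468 (ITGA2 and ITGB6, 4 at 1 CPM). Another 2 were called higher in CAL51 (ITGAV and ITGB1). The shares of all genes fell as well, to 6.82% higher in MDAMB468 and 7.47% in CAL51, from 15.8% and 18.6% at 1 CPM. With 10 CPM, 15 genes of the other adhesion lists were at least 2-fold apart (38 at 1 CPM). Under that pseudocount ITGB4 was at 0.91 and ITGA6 at 0.47. Without a minimum of UMIs, LAMB3 joined the genes higher in MDAMB468. The same 4 and 3 genes were called with the shared barcodes, without the satellites, with a pseudocount of 0.1 CPM, under TMM (edgeR 4.0.16), median of ratios, a total without mitochondrial and ribosomal protein genes, a mean over barcodes, and centred on the all-gene median, a setting chosen after seeing the data. Over those settings 14.2% to 18.4% of all genes were higher in MDAMB468 and 15.6% to 22.0% in CAL51. TMM moved the median of all genes to -0.24 and median of ratios to -0.25, and the ITGA6 difference to 0.42 and 0.40. Under no setting did a called difference change sign. Shares of barcodes follow depth: ITGB6 in MDAMB468 was detected in 9.15% at 1000 UMIs and 32.5% at 5000. At 2500 UMIs it was detected in 24.4% without satellites, 59 of 242 barcodes, and in 52 of 306 with them. The setting without satellites was thinned in a fresh random draw, so its values mix the draw with the loss of those barcodes. The Fano factor of ITGB1 in MDAMB468 was 0.924, 1.10 in a second random draw and 1.15 without satellites, again in a fresh draw. The share of CAL51 barcodes with ITGB1 was 66.0% in the main draw and 70.1% in the second. Depth limits most the genes with few UMIs in both lines, ITGA3, ITGB4 and LAMB3, and the low side of ITGA2, ITGB6 and LAMA3.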
